A study of Mus musculus with 2 samples.

Results

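Npy and Chga, a neuropeptide gene and a gene of the dense core granule that carries such peptides, each had 1 Mov10 peak in postnatal brain, so 2 of the 2296 peaks in the list analysed here belong to them. This list holds fewer peaks than the study's text counts, so every rank, lowest count and missing peak below holds for the list as analysed. The genes were chosen by their presence in this list, at any adjusted p, each having a listed peak that shares at least 1 base with an exon, read antisense to the gene. Their enrichment was therefore seen beforehand and is given as a description, with no test. RNA bound to Mov10, an RNA helicase, was immunoprecipitated (RIP) from brains of 28 C57bl/6 WT pups, pooled at age P2 (2 days after birth), and sequenced beside total input RNA of the same source. The lysate was not UV cross-linked, and it was first cleared with an irrelevant antibody against EGFP, an IP not analysed here. Each fraction was 1 library, of 71.5 M aligned reads (M, 1e6 reads) for the Mov10 IP and 59.6 M for the input, with no replicate. All intervals here cover counting error only and compare these libraries, not conditions.

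Neuropeptides are short signaling peptides that neurons cut from larger precursors and release from dense core granules, away from the fast transmission carried by synaptic vesicles. Neuropeptide Y, the product of Npy, is made by GABAergic interneurons of the cortex and hippocampus and by hypothalamic neurons that drive feeding. Chromogranin A, the product of Chga, is an acidic protein that helps to form dense core granules and to condense their cargo, and it is itself cut into peptides. In the granule, prohormone convertases and a carboxypeptidase trim the precursors, and an amidating enzyme finishes many of the peptides.

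The peaks lay in different parts of the 2 mRNAs. The Npy peak (mm10 chr6:49829401-49829600, 200 bases) began 73 bases after the stop codon, in the 3' UTR of exon 4 of 4, and ran beyond the annotated end of the gene. Of its bases, 107 were 3' UTR and 93 lay past the gene end at position 49829507. The Chga peak (mm10 chr12:102561801-102562000, 200 bases) lay wholly within coding exon 6 of 8, over coding bases 550 to 749 of 1389. Both genes are on the plus strand and both peaks on the minus strand, reads of these libraries being antisense to the RNA. No other annotated gene lay under either peak. The polyadenylation signal under the Npy peak is shown because it places the peak at the very end of the mRNA, with AATAAA in capitals, at chr6:49829473-49829502. It is the plus strand, 5' to 3', from GENCODE M21 transcripts on the assembly that mm10 denotes.
Npy: tatgtgtgtttaAATAAAgtaccatgcatt

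**Figure D1:**
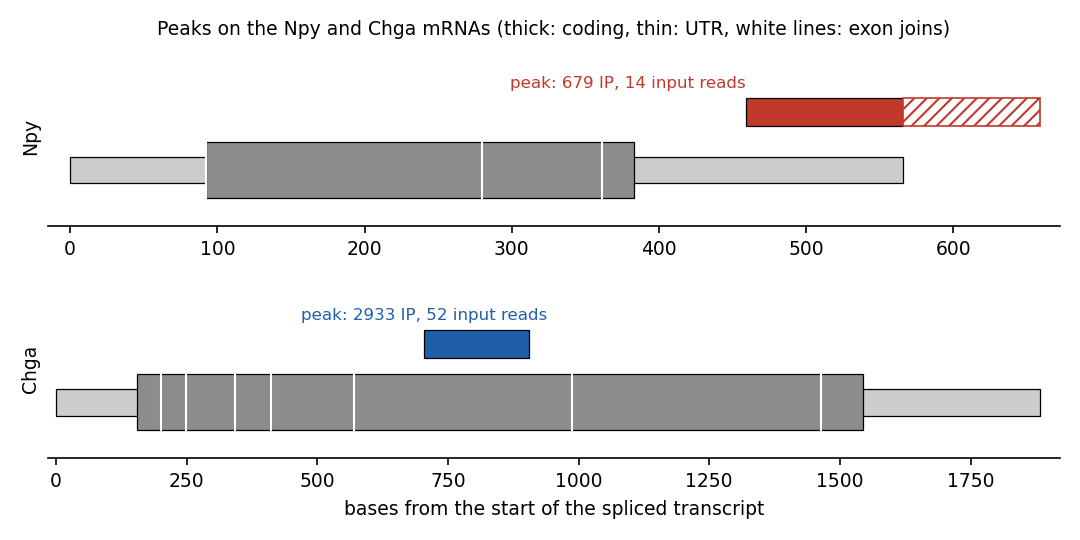
Spliced Npy and Chga mRNAs, with bases from the transcript start on each x axis (the scales differ), thick bars for coding sequence, thin bars for UTRs and white lines at exon joins. The Npy peak covers the last 107 bases of its mRNA and 93 bases beyond the annotated end (hatched), and the Chga peak covers bases 706 to 905 of 1883.

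In reads, Npy was among the weakest peaks over exons and Chga was in the upper part, but both stood high in their excess over input. Npy had 679 IP reads and 14 input reads. Chga had 2933 IP reads and 52 input reads. Neither peak held many input reads beside the 768 peaks over an antisense exon (called exonic peaks here), whose median was 107 input reads. These counts are of the peak alone, not of the whole gene, and are not scaled to peak length. By input reads Npy ranked 738th and Chga 579th. By IP reads they ranked 641st and 242nd, against a median of 1825. The brain was sequenced whole, so a low input level from few expressing cells cannot be told apart from little RNA per cell. For Npy, 93 of the 200 peak bases also lie past the annotated mRNA end, and their effect on the count was not tested.

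An enrichment ratio was taken for each peak as IP over input, with each read count first scaled to its library's aligned total. The ratio of Npy was 40.4, with an exact binomial 95% interval of 23.9 to 74.3. The ratio of Chga was 47.0 (35.8 to 63.1). Both intervals lay above the median of the exonic peaks, which was 14.5, with quartiles of 8.93 and 23.0. With 0.5 added to both counts, as for all medians and ranks here, Npy stood at 39.1 and Chga at 46.6, which is 2.70 and 3.22 times that median. By ratio they ranked 87th and 64th of 768. The interval of Npy was wider (3.11-fold from end to end, against 1.76-fold for Chga), since it rests on 14 input reads. Dividing by uniquely aligned reads instead lowered the ratios to 24.8 for Npy and 28.8 for Chga, a change that every peak shares.

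**Figure D2:**
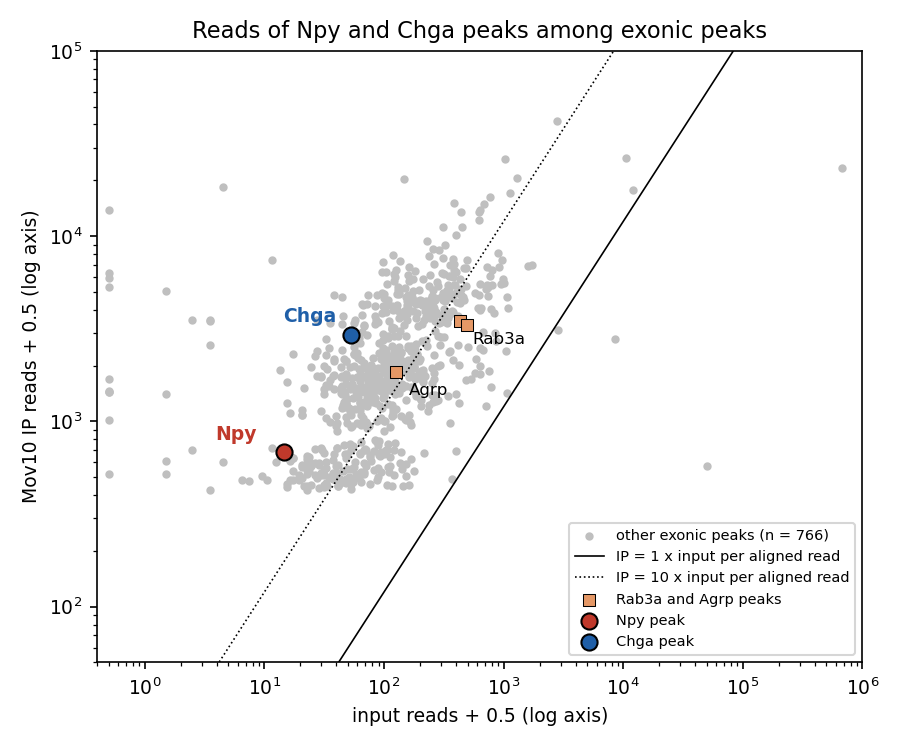
Mov10 IP reads against input reads of the exonic peaks, both on log axes with 0.5 added, with lines at equality and at 10 times the input after division by aligned reads. Chga (2933 and 52 reads) and Npy (679 and 14 reads) lie above the dotted line, Npy near the left edge of the cloud. The Rab3a peaks (squares) lie below that line and the Agrp peak (square) above it.

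Set beside each other per length, both peaks being 200 bases long, the level of Chga exceeded that of Npy in both libraries. In the IP, Chga had 205 reads per kilobase and per M aligned reads and Npy had 47.5. In the input the same levels were 4.36 and 1.17. Chga therefore had 4.32 times the IP reads of Npy (95% interval 3.97 to 4.70) and 3.71 times the input reads (2.03 to 7.26). The enrichment ratio of Chga was 1.16 times that of Npy, with an interval of 0.592 to 2.14, so at this depth no difference in enrichment between them was detectable. For Npy the level is that of the whole 200 bases, although 93 of them lie past the annotated end of the mRNA.

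The input level bears on these ratios, since a peak with few input reads needs only modest IP reads to reach a high ratio. Against exonic peaks whose input was within 1.5-fold of its own, Npy was ordinary: among 29 such peaks, with 10 to 21 input reads, the median ratio was 37.2, and 17 had a lower and 12 a higher ratio. Of 180 exonic peaks with 35 to 78 input reads, 167 had a lower and 13 a higher ratio than Chga, around a median of 19.2 and a range of 4.99 to 104. The place of Chga here cannot be told apart from what was listed on its chromosome strand. The lowest IP count of any peak there, 2769 reads, would give a ratio of 44.0 at the input of Chga, which is already above 165 of the 180. For Npy the lowest count on its strand, 425 reads, would give 24.5, above 9 of the 29.

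**Figure D3:**
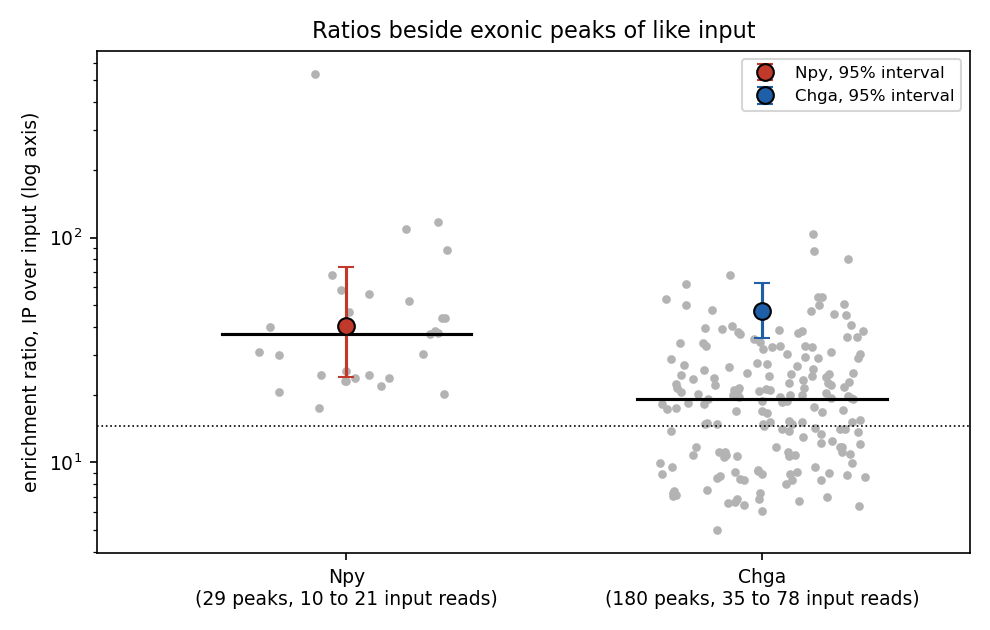
Enrichment ratio on a log axis for exonic peaks with input reads within 1.5-fold of each gene's own (gray, 0.5 added to both counts), their median (bar), the median of all exonic peaks (dotted line, 14.5), and the ratio of Npy and of Chga with its 95% interval. Npy sits near the median of its 29 peers (37.2) and Chga above that of its 180 (19.2), where the lowest IP count on its strand would give 44.0.

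Both peaks passed the authors' adjusted p of 0.05, as did 43.4% of all 2296 peaks and 90.4% of the exonic peaks. The adjusted p was 1.78e-152 for Npy and was listed as 0 for Chga, as the unadjusted p was for 465 of the 768 exonic peaks. Both also passed an empirical false discovery rate (eFDR) of 0.05, which 36.8% of exonic peaks did. These calls do not set the genes apart from their neighbors, because on the minus strands of chromosomes 6 and 12 every listed peak (139 and 17) passed both measures. The caller's score was 756 for Npy, within 658 to 770 for all peaks of its strand, and 31.0 for Chga, within 0.879 to 69.3 on its own. The scores of the 2 genes therefore lie on ranges that do not overlap and were not compared.

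The number of IP reads that a listed peak had also depended on the chromosome strand. The lowest IP count ran from 226 to 20339 over the 32 chromosome strands with a peak, with a median of 2787. On the minus strand of chromosome 6 it was 425, so Npy, with 1.60 times that count, lay well inside the list, with 85 peaks below it. Its nearest peaks in IP reads there were Atp6v1f (676 IP and 215 input reads) and Luc7l2 (680 and 137), both with far more input. A peak with the reads of Npy would reach the lowest listed count on 3 of the 32 strands. On the minus strand of chromosome 12 the lowest count was 2769, and Chga lay just above it at 1.06 times, with only 3 peaks below it. The reads of Chga would reach the lowest listed count on 17 strands.

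**Figure D4:**
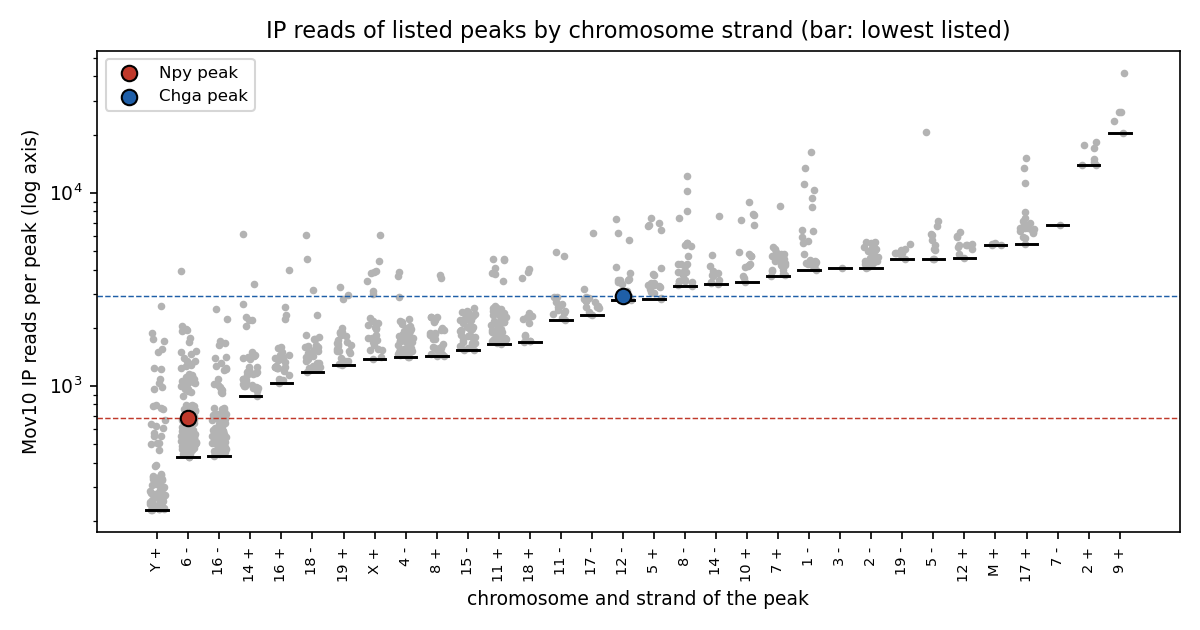
IP reads of every listed peak on a chromosome, on a log axis, by chromosome and strand, ordered by the lowest listed count (bar). Npy (679 reads, dashed red line) lies above the bar on 3 strands, and Chga (2933 reads, dashed blue line) lies just above the bar of its own strand (2769).

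Within its strand, Npy had a higher ratio than most peaks: 127 were lower and 11 higher, around a median of 10.8. Chga had 14 lower and 2 higher, around a median of 33.4. Both also had few input reads for their strands, so these places were not separated from input level. Npy had 14 against a strand median of 53, with 10 peaks lower. Chga had 52 against 120, with 2 peaks lower. The nearest peak to Npy on the same strand lay over Mpp6, a scaffold gene, 281 kb away (a ratio of 8.31 with 0.5 added). No second peak covered another exon of either gene, as for 403 of the 559 genes with an exonic peak. The Npy peak spans 18.9% of its 566-base mRNA and the Chga peak 10.6% of its 1883-base mRNA. A missing peak elsewhere in the mRNA is not shown to be a lack of bound RNA, since reads outside listed peaks were not analysed here.

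By place in the gene, Chga belongs to 128 exonic peaks that lay wholly in coding sequence of a single coding gene, with a median ratio of 15.1, of which 7 had a higher ratio. Npy belongs to 22 such peaks that crossed the annotated 3' end of their gene, with a median of 13.6, of which 3 had a higher ratio. Neither class median was far from that of all exonic peaks. Input was not matched here: the class medians were 98 reads (Chga 52) and 96.5 reads (Npy 14).

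The exonic peaks most like the pair in reads belong to genes of many kinds. Likeness was the distance between log2 IP and log2 input reads over the 2 libraries. For Npy the nearest were Pcp4, a calmodulin regulator of neurons (691 IP and 15 input reads, a ratio of 38.4, interval 23.1 to 69.0), and Immt, a mitochondrial inner membrane gene (698 and 15, 38.8). They were followed by 2900011O08Rik (31.8), Ccdc174 (41.7) and the pseudogene Gm5221 (31.2). All of these lay on the minus strands of chromosomes 6 and 16. For Chga they were Lrpap1, a chaperone of lipoprotein receptors (2805 IP and 61 input reads, a ratio of 38.3, interval 29.7 to 50.2), the pseudogene Gm15484 (50.8), Cby1 (37.4), the tropomyosin gene Tpm4 (51.2) and Fezf2, a transcription factor of deep-layer cortical neurons (35.6).

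Most of the other neuropeptide and granule genes had no listed peak, but only 1.82% of all protein-coding genes had a peak that passed. Of 47 neuropeptide precursor genes, Npy alone had a peak that passed the adjusted p of 0.05. Agrp, which encodes a feeding peptide made by the same hypothalamic neurons as neuropeptide Y, shared 114 bases with a peak of 1846 IP and 126 input reads (a ratio of 12.2, 10.2 to 14.7). That peak did not pass, with an adjusted p of 1, and all its 265 bases lay over the pseudogene Gm5914, so the ratio is not one for Agrp mRNA. Of 7 granins and relatives, Chga alone had a peak. Of 23 genes of granule membrane, biogenesis and release, only Rab3a did, a GTPase of regulated exocytosis that also serves synaptic vesicles. Its peaks had 3474 IP and 430 input reads (6.73, 6.09 to 7.46) and 3291 and 490 (5.60, 5.09 to 6.17). Neither Rab3a interval reached that of Npy or Chga. None of 12 peptide processing enzymes and none of 5 neuropeptide Y receptors had a peak, and beside the 1.82% such short lists say little. In all, 3 of these 94 genes had a peak that passed (3.19%), against 401 of 22028 protein-coding genes (1.82%), and Npy and Chga were chosen because they had one.

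The genes without a peak lie opposite strands with different lowest listed counts, which are not shown to be limits of detection. Of the 90, 24 lie opposite a chromosome strand with no peak at all in the list analysed here, and the others opposite strands whose lowest listed IP count ran from 425 to 20339. The granin Chgb lies opposite a strand with a lowest count of 4075 among 24 peaks. Scg5 lies opposite 13847 among 7 peaks and Scg3 opposite 20339 among 5. All 3 lowest counts are above the reads of Chga, but so few peaks do not show what could have been called there. For the granin Scg2 and for Pcsk1n, the strand holds no peak. Cck, a peptide gene of cortical neurons, lies opposite a lowest count of 20339, and Sst, a peptide gene of interneurons, opposite 1039. Only 2 of the 90, Tac1, which encodes substance P, and Iapp, lie opposite a strand whose lowest count is at or below the reads of Npy, and both share the strand of Npy. Of all 90, 35 lie opposite a strand that lists peaks at or below the reads of Chga, among them Cpe, the carboxypeptidase that trims peptide precursors (a lowest count of 1417), and Pomc, on the strand of Chga itself. Atp6v1f, Luc7l2, Mpp6, Chgb, Scg2, Scg3, Scg5, Pcsk1n, Cck, Sst, Tac1, Iapp, Cpe and Pomc are named here after their values were seen.

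Markers of the tissue were checked in the same way. Of 10 neuron markers, 5 had a peak that passed (Tubb3, Snap25, Syt1, Nefl and Nefm), but Nefm alone also passed the eFDR of 0.05. None of 10 genes chosen as pituitary and chromaffin markers had a peak (Gh, Prl, Cga, Tshb, Lhb, Fshb, Pou1f1, Th, Pnmt and Ddc). None of 10 chosen for other organs had one (Alb, Apoa1, Ttr, Myh3, Acta1, Ckm, Hbb-bs, Hba-a1, Ins1 and Ins2). Whether these genes are silent in brain was not checked. Only 1.82% of protein-coding genes had a peak that passed, so lists of this size can say little. Of the genes without a peak, 1, 2 and 1 in these lists lie opposite a strand with no peak.

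The sequences under the peaks differ in composition. The Chga peak was 59.0% G+C, close to 58.3% in the rest of its mRNA, against a median of 53.5% (quartiles 46.0 and 59.0) over 144 exonic peaks of 200 bases that lay wholly in an exon of a coding transcript. The 107 bases of Npy mRNA were 43.9% G+C, below 56.0% in the rest of the mRNA but above the median of 36.4% for the last 107 bases of 21848 coding transcripts, 1 per gene. The signal AATAAA, read on the RNA strand alone, ended 17 bases before the annotated Npy end, and 61.8% of those transcript ends hold it. The 93 bases of the Npy peak past the gene end were not read. The 107 bases of Npy held no other AATAAA or ATTAAA, the 200 of Chga held neither, and both lacked 4 runs of at least 3 G with 1 to 7 bases between them, a pattern found in 1 of the 144 peaks. The longest stretch of purines in the Chga peak, 33 bases, was picked after the sequence was seen and took bases 155 to 187 of the peak. The Chga peak was the only one of the 144 with a stretch that long, the median being 8 bases, though the rest of the Chga mRNA held a stretch of 26. Of the 66 codons wholly within the peak (184 to 249), 13 code for glutamate (19.7%), against 58 of 397 elsewhere in Chga (14.6%).

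Reads with several alignments had been placed by the peak caller, so copies of these sequences elsewhere matter. Neither the 107 bases of Npy mRNA nor the 200 bases of Chga matched a transcript of another gene over 100 bases or longer with 95% identity. These bases of Npy had no match to another gene, and the 93 bases past the gene end were not searched. Chga had short partial matches to 98 other genes, the longest of 64 bases at 79.7% identity.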

How the data were processed

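The data were RIP-seq peaks of 1 Mov10 IP library and 1 input library. Per the paper's methods and the labels, the authors aligned reads with TopHat2 2.1.1 to unmasked mm10, keeping up to 2000 alignments per read, and called peaks with RIPSeeker on each strand. The deposited read count of a peak, its score, p-value, adjusted p-value and eFDR are the authors' own, and the counts are not scaled to library size. Ratios were divided by the paper's aligned reads (71.5 M for the IP and 59.6 M for the input). Intervals are exact conditional binomial. Without replicates no test was run. Peaks were placed with GENCODE M21. RefSeq exons were not used here, but transcripts paired with RefSeq were an alternative. Copies were sought with BLAST 2.17.0 (blastn). Python 3.11.15, scipy 1.17.1, pandas 2.3.3, numpy 2.4.6 and matplotlib 3.10.9 were used, and the code was tested on simulated data.

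The members and gene lists were chosen with earlier results of these data known. Named genes are Npy, Chga, every listed gene with an exonic peak, and the 5 exonic peaks nearest each of the pair. Neighbors on the strand and listed genes without a peak were named after their values were seen. Alternatives varied the library totals, pseudocount, overlap, annotation, call and reference peaks. Some values and sequences are not reported here.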

Additional observations from a re-analysis of the deposited data

How the results depend on the processing

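Of 28 alternatives, 23 left the value within its interval or within 1.5 times the main count. Some of the 23 could not do otherwise. GENCODE exons alone were already the main setting, and each gene had only 1 exonic peak to sum. Dividing by uniquely aligned reads lowered the ratio of Chga to 28.8 and that of Npy to 24.8. With 10 or more input reads required of the reference peaks, the percentile of the ratio rose from 88.8 to 91.8 for Npy and from 91.8 to 94.8 for Chga. That setting drops only peaks with less input than either gene, where few IP reads give a high ratio, so a rise was likely beforehand. Against exonic peaks of the same chromosome strand, a setting chosen after seeing the data, the percentiles were 92.7 and 88.2. Calling by eFDR instead, 2 of the 94 pathway genes had a passing peak, since both Rab3a peaks failed. Requiring at least 50% of the peak in exons, or using only transcripts paired with RefSeq, changed no count. No paired analysis was possible because each group holds 1 library. The input depth of 14 reads limits the precision of the ratio of Npy.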
